A study of Homo sapiens with 6 samples.

Results

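Immune checkpoint ligands are cell-surface or secreted proteins through which a tumour cell can restrain T cells, natural killer cells or macrophages, and 9 genes that encode them were followed here: CD274, PDCD1LG2, CD276, VTCN1, CD47, PVR, NECTIN2, LGALS9 and TNFRSF14. The genes were taken by name, as 9 of the 20037 protein-coding genes of the RefSeq table, by a rule that uses no measured value, although results of these data were known when the genes were proposed. Their chromatin was read from every accessible site (peak) that overlapped a gene's span or the 20 kb on either side of it, which is called its window. Silenced replicate 1 had 54 of its 162115 peaks in the 9 windows, replicate 2 had 55 of 167966 and replicate 3 had 49 of 121406. Control replicate 1 had 59 of 170882, replicate 2 had 40 of 91346 and replicate 3 had 53 of 165674. Values below are given in this order, replicates 1, 2 and 3 of the silenced group and then of the control group.

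The peaks come from ATAC-seq, in which a transposase inserts sequencing adapters into open DNA. The cells were NCI-H1703, an established line from a human lung squamous cell carcinoma. In 3 libraries the long non-coding RNA DLGAP1-AS2 had been silenced, and 3 libraries came from control cells of the same line. The title prefix ASO is all the labels give on the silencing agent, and they name no time point and no clone. Peak lists hold no RNA level, so the silencing itself was not checked and nothing here measures how much of any ligand the cells made.

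The members act through different receptors. CD274 encodes PD-L1 and PDCD1LG2 encodes PD-L2, and both bind PD-1 on T cells. Interferon gamma is the best known inducer of CD274. CD276 (B7-H3) and VTCN1 (B7-H4) belong to the same B7 family and restrain T cells. CD47 binds SIRP-alpha on macrophages and blocks engulfment. PVR (CD155) and NECTIN2 (CD112) are adhesion proteins of the nectin family that bind the inhibitory receptor TIGIT and the activating receptor CD226. LGALS9 encodes galectin-9, a ligand of TIM-3, and TNFRSF14 (HVEM) engages BTLA and CD160 on lymphocytes.

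Sequence just upstream of the start was compared first, because it differs between members whose starts were open and members whose starts were not. Of the 9 genes, 8 had a start in the RefSeq promoter table of GRCh38.p14. The 5 runs that follow are the 250 bases before the start on the gene's own strand, 5′ to 3′. CD274 lies at chr9:5450292-5450541 on the plus strand, and its capitals mark 2 overlapping matches to the interferon-stimulated response element. PVR lies at chr19:44643660-44643909 on the plus strand, and its capitals mark the TEAD motif GGAATG, shown because TEAD factors are the DNA-binding partners of the co-activator YAP, which the series title names. CD47 lies at chr3:108091032-108091281 on the minus strand, with 6 GC boxes (GGGCGG) in capitals. VTCN1, at chr1:117210928-117211177 on the minus strand, and LGALS9, at chr17:27630938-27631187 on the plus strand, stand for the members with no peak at the start and carry no capitals.
CD274: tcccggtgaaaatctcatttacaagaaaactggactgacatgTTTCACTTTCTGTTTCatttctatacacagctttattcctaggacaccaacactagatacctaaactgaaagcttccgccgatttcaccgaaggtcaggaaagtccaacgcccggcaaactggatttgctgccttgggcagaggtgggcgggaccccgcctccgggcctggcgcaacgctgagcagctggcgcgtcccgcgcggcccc
PVR: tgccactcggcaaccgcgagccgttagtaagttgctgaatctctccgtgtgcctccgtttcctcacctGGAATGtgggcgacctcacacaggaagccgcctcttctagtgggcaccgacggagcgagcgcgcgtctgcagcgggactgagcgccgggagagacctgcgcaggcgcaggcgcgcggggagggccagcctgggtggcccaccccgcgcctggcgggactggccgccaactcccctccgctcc
CD47: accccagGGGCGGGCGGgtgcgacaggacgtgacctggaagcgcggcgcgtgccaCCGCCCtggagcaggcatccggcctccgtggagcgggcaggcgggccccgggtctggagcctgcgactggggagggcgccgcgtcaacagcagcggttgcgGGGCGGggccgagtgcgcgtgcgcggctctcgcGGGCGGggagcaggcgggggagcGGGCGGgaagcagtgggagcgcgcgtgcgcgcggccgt
VTCN1: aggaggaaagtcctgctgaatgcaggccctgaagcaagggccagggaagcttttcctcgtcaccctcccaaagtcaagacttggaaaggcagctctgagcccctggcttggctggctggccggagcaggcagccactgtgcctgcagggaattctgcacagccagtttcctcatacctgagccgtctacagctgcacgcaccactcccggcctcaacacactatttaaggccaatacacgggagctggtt
LGALS9: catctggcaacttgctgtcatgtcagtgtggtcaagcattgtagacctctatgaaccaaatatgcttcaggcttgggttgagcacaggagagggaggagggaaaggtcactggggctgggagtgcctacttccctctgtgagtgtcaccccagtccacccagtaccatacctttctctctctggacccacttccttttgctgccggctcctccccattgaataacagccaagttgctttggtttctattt

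Over the full start window, which runs from 250 bases before to 50 bases after the start, the CD47 window held 45 CpG dinucleotides with 79.0% G or C. The first of 2 CD276 starts held 37 CpGs (80.3% G or C), PVR 27 (67.3%), NECTIN2 26 (68.3%) and CD274 22 (57.3%). TNFRSF14 held 12 CpGs (60.3%), VTCN1 7 (58.7%) and LGALS9 2 (50.7%). Among these 8 genes the 5 whose starts were called in every library, described next, had 22 or more CpGs, and the other 3 had 12 or fewer. Across the genome, protein-coding genes with 1 start whose window was called in all 6 libraries had a median of 27 CpGs (n = 6224), against 6 in genes called in none (n = 3692).

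**Figure D1:**
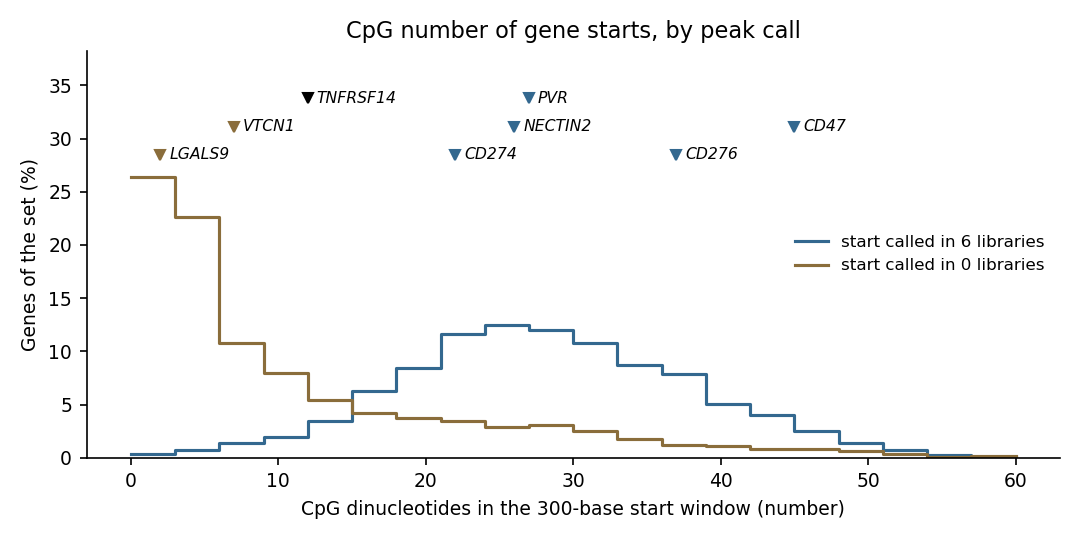
CpG dinucleotides in the start window (horizontal axis, count per 300 bases) against the percent of genes (vertical axis), for protein-coding genes with a peak over the start in all 6 libraries or in none. Markers for the member genes show VTCN1 and LGALS9, with 7 and 2 CpGs, on the side of the genes called in no library, and CD47, with 45, at the far side of those called in all 6.

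Motif matches were sought on both strands of all 35116 start windows. The interferon-stimulated response element GAAANNGAAA occurred in 3.57% of windows; CD274 held 2 overlapping matches and LGALS9 held 1. GGAATG, found in 14.03%, occurred at PVR and TNFRSF14. The AP-1 motif TGANTCA, found in 7.71%, occurred at VTCN1 only among the members. The gamma-activated site TTCNNNGAA, found in 7.66%, occurred among them at CD274 only. GC boxes, found in 45.0% of windows, occurred at CD274, CD276, CD47 and NECTIN2. A match describes the letters and is not evidence of binding.

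Of the 9 starts, 6 carried a peak in all 6 libraries: CD274, PDCD1LG2, CD276, CD47, PVR and NECTIN2. TNFRSF14 was called in 3 libraries, and VTCN1 and LGALS9 in none. Over all protein-coding genes, 55.1% had a start peak in all 6 libraries and 25.7% in none. Each library called 6 or 7 of the 9 starts. Silenced libraries called 6.67 ± 0.577 on average and controls 6.33 ± 0.577 (SD, n = 3 each), a difference within the spread by a two-sided exact permutation test (p = 1; 3 against 3 cannot go below 0.1). None of the 9 was called in all libraries of 1 group and none of the other, which 45 of 20037 protein-coding genes were (0.225%).

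The authors' fold enrichment was read as the ratio of a peak's pileup to its local background, with 1 added to each. Peak strength is given as this fold enrichment and as the peak's height, the pileup itself. Both are the authors' values for a peak. Because their scale follows depth, the test between groups used ranks: within each library the fold enrichments of 11039 starts called everywhere were ranked, turned into normal scores and compared with limma. A score difference is silenced minus control, in units of 1 standard deviation among those starts. Depth in reads is unknown. A stand-in, the lowest background implied by height and fold enrichment, fell to 0.237 in silenced replicate 3, the shallowest library by this measure, and lay between 0.369 and 0.464 in the other libraries. Control replicate 2 called no peak lower than 3, against 2 in the other libraries.

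CD274 (NCBI gene 29126, chr9:5450542-5470554) had the most enriched start of the 9. Its fold enrichment was 15.3, 16.0 and 5.65 in the silenced libraries, and 12.7, 12.5 and 13.7 in the controls. The controls were close together, 2 silenced libraries were above all of them and silenced replicate 3 was below. The means were 12.3 ± 5.77 (SD, n = 3) and 12.9 ± 0.648 (SD, n = 3). In heights, the start reached 28, 30 and 6 against 20, 22 and 22. The score difference was -0.02 ± 0.30 (SE; limma, adjusted p = 0.996). It rested on silenced replicate 3, without which it was 0.43 ± 0.21 (SE; limma, unadjusted p = 0.0612, adjusted p = 0.889).

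The mean over the 6 libraries, 12.6, put CD274 at percentile 55.2 of starts called everywhere. Among them NASP, a histone chaperone gene, had scores closest to those of CD274 over the 6 libraries (Euclidean distance 0.225), and SCN3B, a sodium channel subunit gene, came next (0.293). NASP had 16.0, 16.1 and 5.76 in silenced and 12.9, 11.7 and 14.2 in control libraries. Both genes share the low value in silenced replicate 3 with CD274, and these values come from the same 6 libraries.

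PDCD1LG2 (NCBI gene 80380, chr9:5510531-5571282) begins 40.0 kb beyond CD274. It has no entry in the promoter table, so a peak within 1 kb of either end of its span was taken, which is a wider search than for the others. Fold enrichment was 6.58, 5.88 and 6.94 in silenced and 7.47, 10.0 and 6.43 in control libraries. The groups overlapped. Heights were 9 in every silenced library and 12, 15 and 8 in the controls. The score difference was -0.13 ± 0.30 (SE; limma, adjusted p = 0.974).

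CD276 (NCBI gene 80381, chr15:73683944-73714514) had fold enrichments of 8.78, 7.94 and 3.68 in silenced and 7.03, 13.4 and 10.9 in control libraries. Controls 2 and 3 were above every silenced library, and control 1 was below silenced 1 and 2. The score difference of -0.67 ± 0.32 (SE) was the largest of the 6 in size and did not pass (limma, unadjusted p = 0.0521, adjusted p = 0.957; unadjusted p = 0.0470 with the replicate number as a block). It depended on the width of the window. In silenced replicate 3 the start was split into a peak at chr15:73683639-73683915 of height 19 and one at chr15:73684046-73684245 of height 6, and only the lower one overlapped the start window. With a window of 1 kb on either side, chosen after this was seen, the difference was -0.07 (limma, unadjusted p = 0.833). It also moved with single libraries. Without control replicate 1 it was -1.01, and without silenced replicate 1 it was -0.88 (limma, unadjusted p = 0.00612 and 0.0209). Without silenced replicate 3 and without control replicate 2 it was -0.38 each (limma, unadjusted p = 0.221 and 0.296). No adjusted p was below 0.679 with any 1 library left out.

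CD47 (NCBI gene 961, chr3:108043091-108091031) had 6.64, 10.0 and 3.57 in silenced and 7.94, 6.97 and 9.46 in control libraries. PVR (NCBI gene 5817, chr19:44643910-44666162) had 8.46, 8.63 and 4.02 against 7.42, 9.64 and 9.42. In both genes the lowest value was silenced replicate 3, and the other libraries of the 2 groups overlapped. Their score differences were -0.26 ± 0.30 and -0.28 ± 0.27 (SE; limma, adjusted p = 0.962 and 0.961). Without silenced replicate 3 they were 0.031 for CD47 and -0.051 for PVR.

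NECTIN2 (NCBI gene 5819, chr19:44846297-44889223) was the steadiest. Fold enrichment was 6.51, 6.68 and 6.57 in silenced and 6.59, 6.09 and 6.60 in control libraries, with heights of 27, 30 and 17 against 26, 27 and 30. The SD over the 6 libraries was 0.212, against 1.46 to 3.69 in the other 5 genes. The score difference was 0.28 ± 0.27 (SE; limma, adjusted p = 0.961), and 0.075 without silenced replicate 3.

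The mean fold enrichments over the 6 libraries ran from CD274 (12.6 ± 3.69, SD, n = 6) through CD276 (8.63 ± 3.34), PVR (7.93 ± 2.07), CD47 (7.43 ± 2.31) and PDCD1LG2 (7.22 ± 1.46) to NECTIN2 (6.51 ± 0.212). Every pair of neighbours in this order had overlapping ranges. CD274 was above CD276 in 5 of 6 libraries, and in each later pair the gene with the higher mean was above the other in 3 or 4 libraries. Apart from CD274 the genes stood between percentiles 11.7 and 25.8 of starts called everywhere. The CD276 values here use the lower part of its split peak in silenced replicate 3 (3.68). With 1 kb on either side it had 10.5 in that library, above the 5.65 of CD274.

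**Figure D2:**
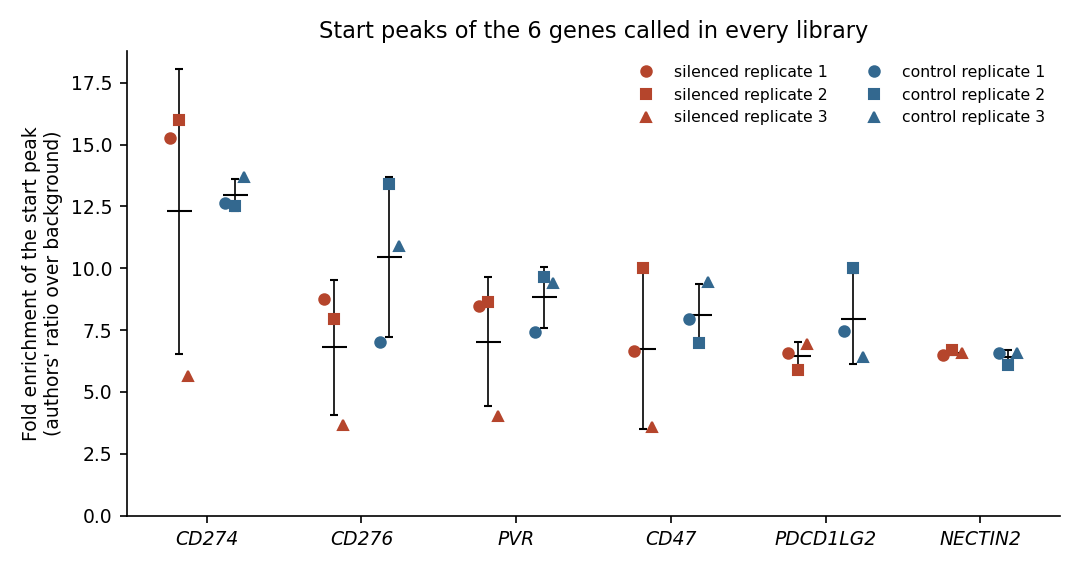
Fold enrichment of the peak over the start (vertical axis, the authors' ratio) for each member called in all 6 libraries, with silenced and control libraries side by side; markers show replicates, bars the mean ± SD (n = 3). CD274 in silenced replicate 3, at 5.65, lies below its other 5 libraries, and NECTIN2 stays between 6.09 and 6.68.

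Between groups, 5 of the 6 genes had a lower score in silenced cells and 1 a higher one, with a median difference of -0.20. Over all 11039 starts the median was 0.013, with 5304 lower and 5735 higher. The members split 3 to 3 when ranked by height or by p-value, and also without silenced replicate 3. With limma no member start passed, and 0 of the 6 had an unadjusted p under 0.05. Over all genes, 0 starts passed after adjustment (0%), and 542 had an unadjusted p under 0.05 (4.91%). The fold enrichments of the 2 groups did not overlap at 1012 starts (9.17%) and at 0 of the 6 members.

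Silenced replicate 3 had a low height at several member starts. Relative to the median of the other 5 libraries, its height was 0.273 at CD274 and at CD276, 0.25 at CD47 and 0.261 at PVR. All 4 are below the lower quartile of the 11039 starts (0.385), whose median was 0.5. At CD276 this comes from the lower part of the split peak: with 1 kb on either side of the start its ratio was 0.864, while those of CD274, CD47 and PVR stayed at 0.273, 0.25 and 0.261, so the low height held for 3 of the 6 genes in both windows. NECTIN2 was at 0.630 and PDCD1LG2 at 1.0, the latter above 0.789, which 5% of starts exceeded. The lower background coverage of this library moves with these values, and its part in the score differences was not tested.

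**Figure D3:**
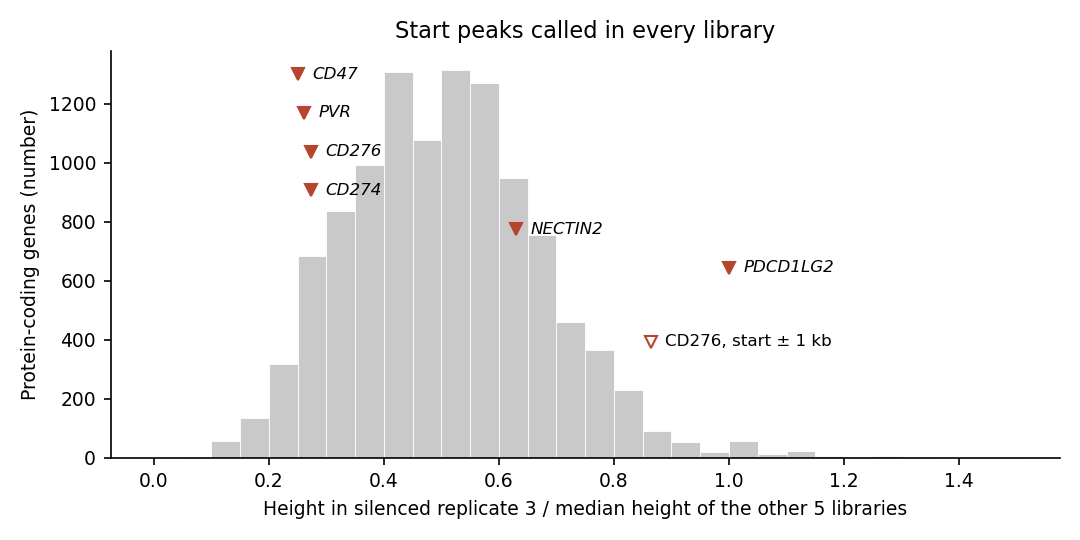
Height in silenced replicate 3 divided by the median height of the other 5 libraries (horizontal axis, ratio) against the number of genes (vertical axis), for 11039 starts called in all 6 libraries, with filled markers at the 6 members (their vertical position carries no value). CD47, PVR, CD274 and CD276 sit between 0.25 and 0.273, left of the median of 0.5, and PDCD1LG2 sits at 1.0. The open marker shows CD276 at 0.864 when the start is searched 1 kb to either side, which takes in the higher part of its split peak.

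TNFRSF14, VTCN1 and LGALS9 lacked a start peak in some or all libraries. TNFRSF14 (NCBI gene 8764, chr1:2554234-2563829) was called at its start with heights of 7 and 4 in silenced replicates 1 and 3 and 8 in control replicate 1. An edge of the lncRNA TNFRSF14-AS1 lay within 1 kb of this region, so a peak there cannot be assigned to 1 gene. With the window of 1 kb on either side TNFRSF14 was called in 5 libraries, at 7, 8 and 4 in silenced and 10 and 8 in control replicates 1 and 3. VTCN1 (NCBI gene 79679, chr1:117143587-117210927) and LGALS9 (NCBI gene 3965, chr17:27631188-27649560) were then each called in 1 library at a height of 4. These are low peaks. Both windows called TNFRSF14 in silenced replicate 3, of the lowest background coverage (0.237), and missed it in control replicate 2, of the highest (0.464). The part of depth in the missing calls was not tested.

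The windows hold more than the starts. The peaks of the 6 libraries merged into 139 regions, of which 89 (64.0%) were called in 1 library and 21 (15.1%) in all 6, against 74.1% and 7.35% over the series. CD276 had 6 shared regions, NECTIN2 5, TNFRSF14 3, CD274 and PDCD1LG2 2 each, CD47, PVR and LGALS9 1 each, and VTCN1 0. By peaks per 100 kb, averaged over the libraries, TNFRSF14 (13.1) and CD276 (12.5) were densest, at percentiles 89.5 and 87.2 of protein-coding genes. CD47 (3.03) was the sparsest, at percentile 10.7, and CD274 was at percentile 23.8. VTCN1 had 33 regions, 28 of them in 1 library, and with only peaks of FDR at most 1e-05 it stood at percentile 11.7 in place of 30.1, while CD274 stood at 65.4 in place of 23.8. The CD274 window thus had fewer peaks per 100 kb than the median gene (5.28 against 8.01) but more at that FDR (3.61 against 2.42). The stronger of its 2 shared regions lay within 1 kb of an edge of the PLGRKT span.

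**Figure D4:**
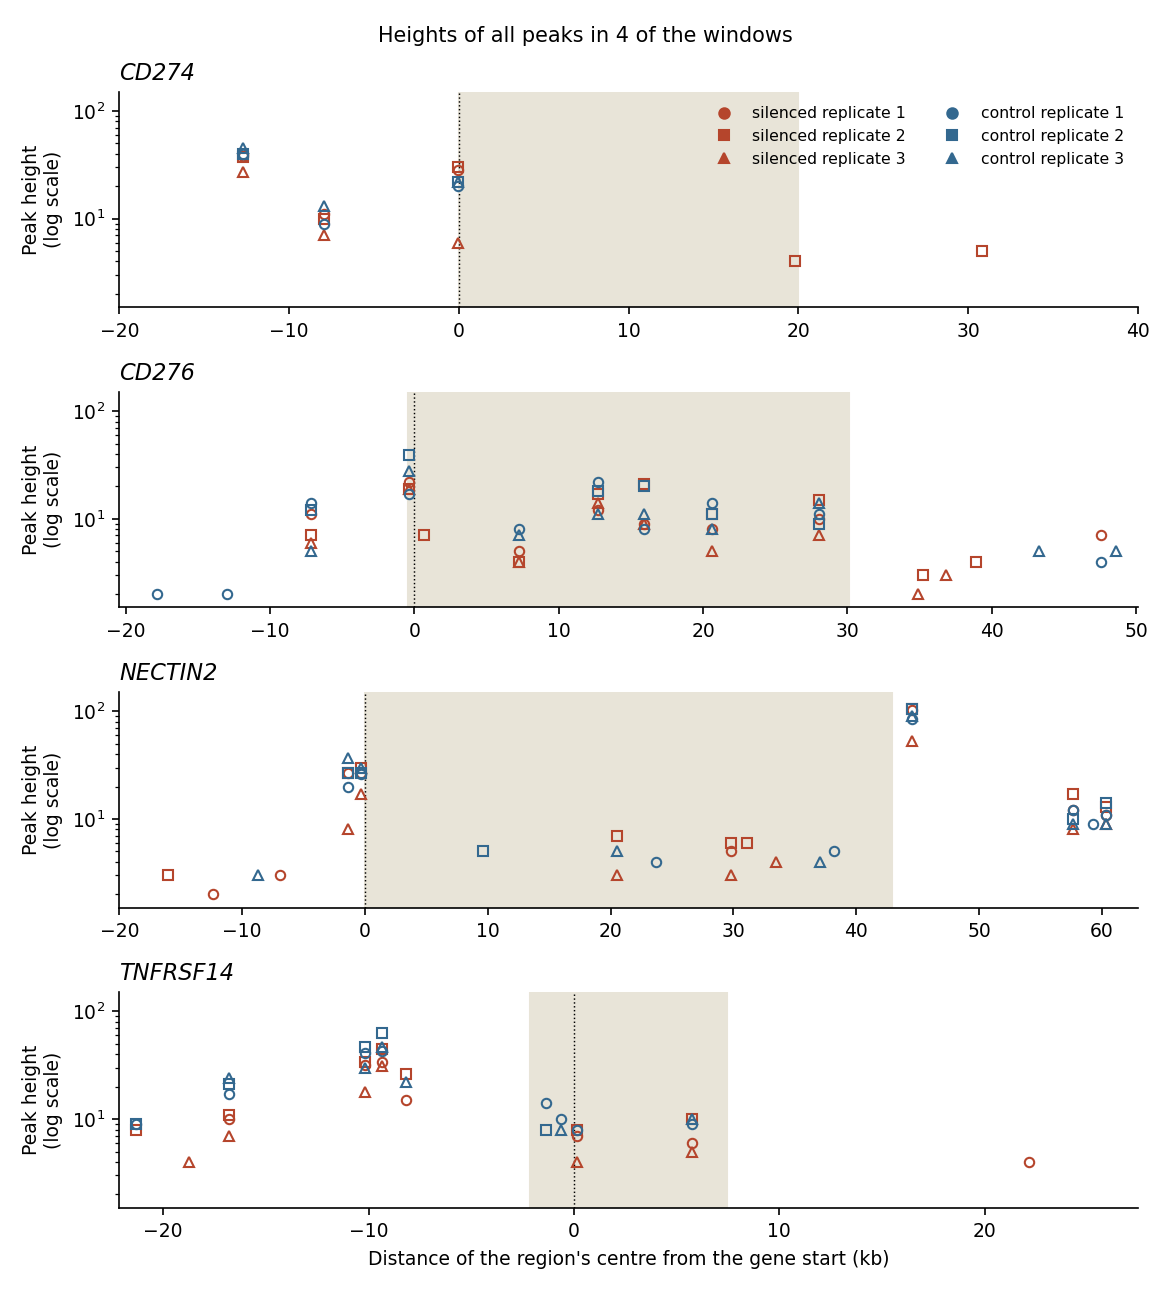
Peaks in the windows of CD274, CD276, NECTIN2 and TNFRSF14, placed by the distance of the region's centre from the gene start (horizontal axis, kb) and by height (vertical axis, log scale), with 1 colour per group and the gene span shaded. CD274 shows 2 sites that recur in all 6 libraries, CD276 shows 6 and NECTIN2 5, the tallest of them at heights of 53 to 105.

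At CD274 the stronger of the 2 shared regions was not its own start but chr9:5437481-5438127. It lay within 1 kb of the edge of the PLGRKT span that faces CD274. Whether this edge is the start of PLGRKT was not read. Heights there were 38, 37 and 27 in silenced and 40, 40 and 45 in control libraries. Fold enrichment averaged 15.1 ± 0.319 and 16.2 ± 0.509 (SD, n = 3), without overlap, but the rank score differed by -0.06 ± 0.20 (SE; limma, unadjusted p = 0.778, adjusted p = 0.985) and by 0.019 when ranked by height. At PDCD1LG2 the other shared region, chr9:5583157-5583682, was low, with heights of 3, 4 and 4 against 7, 5 and 4. The most enriched region away from the start was chr9:5590012-5590374, called in all libraries but control replicate 2, with heights of 7, 9 and 6 in silenced libraries and 9 and 8 in the controls. The lncRNA INCR1 overlaps both spans, so a peak there cannot be assigned to 1 gene.

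In the CD276 window 5 shared regions lay outside the start. Inside the gene, chr15:73696757-73697463 had heights of 12, 17 and 14 in silenced and 22, 18 and 11 in control libraries, and chr15:73712135-73712648 had 10, 15 and 7 against 11, 9 and 14. Upstream, chr15:73676925-73677578 had 11, 7 and 6 against 14, 12 and 5. In each of these the groups overlapped.

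The strongest region in the NECTIN2 window lay beyond the gene, at the near end of TOMM40, a mitochondrial import gene, at chr19:44890335-44891316. Its heights were 102, 104 and 53 in silenced and 85, 105 and 90 in control libraries. Nearer the NECTIN2 start, chr19:44844677-44845148 had 27, 27 and 8 against 20, 27 and 37. NECTIN2 also held the only region of the 139 that was called in all 3 silenced libraries and no control: chr19:44875864-44876299, inside the gene, with heights of 5, 6 and 3 and an FDR of up to 0.488. Over the series 662 of 507440 regions were called that way (0.13%) and 1016 in all controls and no silenced library (0.2%), the latter with 0 in the 9 windows.

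LGALS9 had its only shared region outside the gene, at chr17:27654595-27655251 within the span of the pseudogene NOS2P1, with heights of 21, 44 and 13 in silenced and 40, 33 and 43 in control libraries. VTCN1 had no shared region. Its most enriched one, chr1:117128641-117128984, was called at heights of 8 and 7 in silenced replicates 1 and 2 and 5 in control replicate 1. CD47 and PVR had their starts as the only shared region. Elsewhere the most enriched PVR region, chr19:44654421-44654705 inside the gene, reached 10 in silenced replicate 1, 7 in silenced replicate 2 and 13 in control replicate 2 by height. The CD47 window held 7 further regions, each called in 1 library, the most enriched being chr3:108022979-108023278 with a height of 4 in silenced replicate 1.

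At TNFRSF14 the strong regions lay upstream of the gene. The tallest, chr1:2546589-2547416, had heights of 34, 45 and 31 in silenced and 43, 63 and 47 in control libraries, and chr1:2545935-2546490 had 32, 34 and 18 against 41, 47 and 30. A weaker one, chr1:2539339-2539807, had 10, 11 and 7 against 17, 21 and 24. There, all controls were higher than all silenced libraries, and fold enrichment averaged 4.40 ± 0.245 and 7.04 ± 0.554 (SD, n = 3). The score difference of -0.74 ± 0.37 (SE) did not pass (limma, unadjusted p = 0.0613, adjusted p = 0.963). By height it was -0.68 (limma, unadjusted p = 0.00975, adjusted p = 0.971). With only peaks of FDR at most 1e-05, the region was called in all 3 control libraries and no silenced one. It was singled out after its values were seen. At that FDR the silenced lists kept 33511, 36225 and 24487 peaks and the control lists 35695, 37323 and 36497. The share of all regions called in controls only at that FDR is not given here.

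The fold enrichments of the groups did not overlap at the region by the edge of the PLGRKT span and at this TNFRSF14 flank. They are 2 of the 21 shared regions in the windows, against 3825 of 37284 in the series (10.3%). None of the 21 passed limma after adjustment and none had an unadjusted p under 0.05, against 0 (0%) and 1746 (4.68%) of 37284. The largest positive score difference, 0.99 ± 0.48 (SE; limma, unadjusted p = 0.0549, adjusted p = 0.963), belonged to chr19:44903663-44904253 near the other end of TOMM40, with heights of 12, 17 and 8 against 12, 10 and 9. The median over the 21 was -0.05, against 0.0066 over all shared regions.

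Peak numbers differed by less than the spread between libraries. Summed over the 9 windows, silenced libraries held 52.7 ± 3.21 peaks and controls 50.7 ± 9.71 (SD, n = 3 each; exact permutation test, two-sided, p = 0.8). Gene by gene, CD276 held 8, 10 and 10 against 10, 6 and 9, NECTIN2 8, 9 and 8 against 8, 6 and 8, and PVR 6, 6 and 5 against 7, 9 and 5. CD274 held 3, 5 and 3 against 3, 2 and 3, and CD47 4, 2 and 3 against 2, 2 and 3. PDCD1LG2 held 6, 6 and 4 against 7, 3 and 7, and VTCN1 6, 8 and 5 against 8, 4 and 8. LGALS9 held 6, 2 and 5 against 6, 3 and 4, and TNFRSF14 7, 7 and 6 against 8, 5 and 6. The groups overlapped in all 9, and the 9 unadjusted exact permutation p-values lay between 0.5 and 1. The total followed the lists: control replicate 2, with the fewest peaks in all, also had the fewest here. The 9 windows took 0.0320% to 0.0438% of each list.

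**Figure D5:**
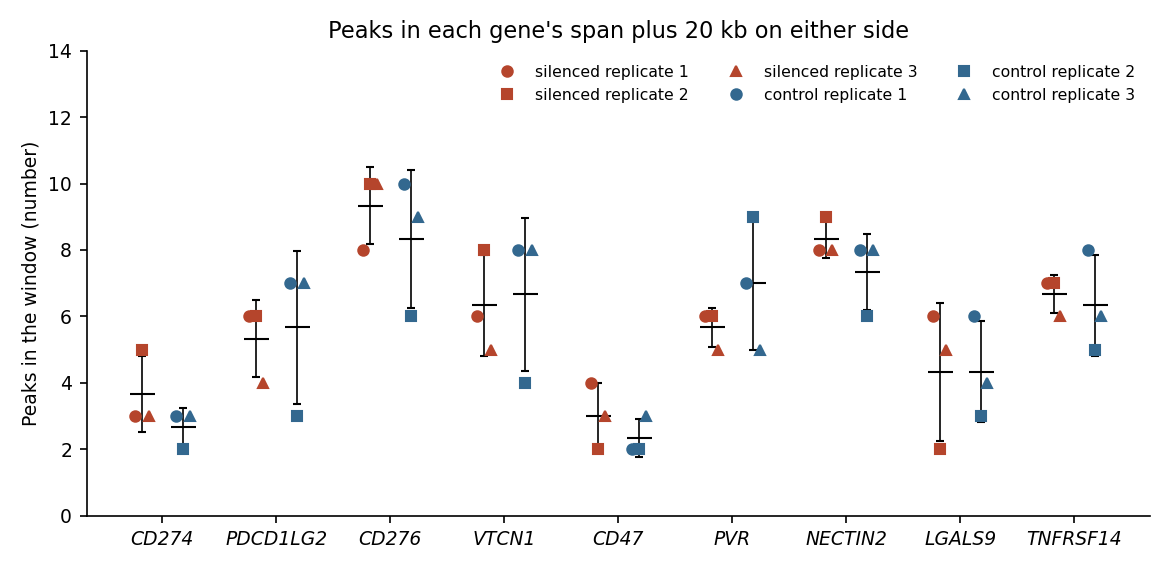
Number of peaks in the window of each gene (vertical axis, count) by library, silenced and control side by side, with the mean ± SD (n = 3) as bars and replicates as markers. The groups overlap for every gene, from CD274 with 2 to 5 peaks to CD276 with 6 to 10.

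Related genes were read the same way, from lists whose members were chosen with earlier results of these data known. Over all protein-coding genes, 55.1% had a start peak in all 6 libraries and 25.7% in none. With 1 kb on either side of the start these shares were 60.2% and 17.8%. Among 24 other checkpoint ligands, 10 had a start peak in all 6 libraries and 10 in none, and 11 and 7 in that wider window. The most enriched were BTN2A2 (19.2 ± 2.255, SD, n = 6), HMGB1 (18.6 ± 1.74), CD80 (12.3 ± 2.24), which binds CD28 and CTLA4, and BTN3A1 (11.5 ± 2.11). Their median score difference was 0.08, with 6 higher and 4 lower in silenced cells. Of 13 receptors for the ligands, which are mostly lymphocyte genes, 10 had no start peak in any library (6 with 1 kb on either side of the start), among them TIGIT and BTLA in both windows, and 1 had it in all 6, SIRPA (4.43 ± 1.47, SD, n = 6). PDCD1, the PD-1 gene, was called in 2 libraries and HAVCR2, the TIM-3 gene, in 3. BTN2A2, BTN3A1, SIRPA and HAVCR2 have no entry in the promoter table. Either end of their spans was searched within 1 kb, a wider search than the start window.

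Of 18 genes known to regulate CD274, 16 had a start peak in all 6 libraries (88.9%, against 55.1% of all protein-coding genes). The most enriched were STAT3 (20.1 ± 1.53, SD, n = 6), SPOP (19.0 ± 1.20), IFNGR1 (18.3 ± 1.24) and HIF1A (17.1 ± 1.40). B3GNT3 and IFNGR2 had no start peak, and with 1 kb on either side IFNGR2 had one in all 6 libraries. Scores of the 16 were higher in silenced cells in 9 and lower in 7, with a median difference of 0.03. No gene of these 3 lists was called in all libraries of 1 group and none of the other, and none had an unadjusted p under 0.05 with limma.

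Marker genes were read in the same way, against 55.1% of all protein-coding starts called in every library and 25.7% in none. With 1 kb on either side these shares were 60.2% and 17.8%. Of 7 squamous markers, SOX2 alone had a start peak in all 6 libraries (5.83 ± 0.819, SD, n = 6), KRT5, KRT6A and DSG3 had none, and TP63, KRT14 and PKP1 were each called in 1 library. Of 5 epithelial markers, KRT18 was called in all 6 libraries (4.61 ± 0.821, SD, n = 6) and KRT8 in none. EPCAM was called in 3 libraries, CDH1 in 2 and KRT19 in 1. KRT18, like EPCAM, CDH1, KRT19, KRT6A and KRT14, has no entry in the promoter table, so either end of its span was searched. KRT8 was searched over its start window alone. With 1 kb on either side KRT18 and KRT8 were called in all 6, the only 2 of the 5 epithelial markers that were. Of 5 mesenchymal markers, CDH2 (5.74 ± 0.925) and ZEB1 (5.32 ± 1.03) were called in all 6 and VIM and SPARC in none, and with 1 kb on either side 4 were called in all 6, with VIM and FN1 added. Of 6 lymphoid markers, 5 had no start peak in any library and 0 had one in all 6. Of 6 leukocyte and myeloid markers, 4 had none, PTPRC among them, and 1 had it in all 6, SPI1, for which either end of the span was searched.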

How the data were processed

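ATAC-seq peak lists of 6 NCI-H1703 libraries, 3 with DLGAP1-AS2 silenced and 3 control, were analysed. The authors deposited 1 list per library. Per the file headers, each peak has a fold enrichment (a ratio over local background), a p-value, an FDR (an adjusted p-value) and a pileup (a coverage signal whose value is the peak's height). The submitters' processing notes name Trimmomatic 0.36, Bowtie2 2.2.6, Picard 2.8.2, MACS2 2.1.1, bedtools 2.25.0 and the build GRCh38, without their order. Any correction of read ends for the transposase offset is not given in the sources used here.

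Gene spans and starts came from RefSeq (GRCh38.p14), which gave no exons, so exonic, intronic or UTR positions were not analysed here. Overlap meant at least 1 bp, and lists were merged at 1 bp into regions. A start window ran from 250 bases before to 50 after the start. A gene without a start entry was searched within 1 kb of either end. The strongest overlapping peak gave a gene's value. Ranks were tested in Python 3.11.15 and R 4.3.3 with limma 3.58.1 (eBayes with trend, Benjamini-Hochberg over the whole table), and the fit was tested on simulated data. Numbers per library were compared by two-sided exact permutation, which cannot go below 0.1. The labels do not say that replicates were separate cultures, so p-values measure the spread between these libraries, which may be technical. Same-numbered libraries did not deviate together (correlations between -0.00829 and 0.00238), so numbers were not treated as pairs.

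The members and lists were chosen with earlier results of these data known. By rule, the text names every member, its start region, the most enriched region elsewhere in its window, regions called in 1 group only, for each list up to 4 genes with the highest start enrichment, and the 2 genes most like CD274. Other regions and genes were picked after their values were seen. Alternatives were FDR at most 1e-05, height at least 4, equal list lengths (91346 peaks), the span plus 5 kb, ranking by height or p-value, each library left out, the replicate block and, added later, starts plus and minus 1 kb.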

Additional observations from a re-analysis of the deposited data

How the results depend on the processing

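No member start or region passed limma when ranked by height or by p-value, at an FDR of at most 1e-05, with any 1 library left out or, for starts only, with 1 kb on either side. Unadjusted limma p at chr1:2539339-2539807 was 0.0192 ranked by p-value, 0.0333 without silenced replicate 3 and 0.171 without silenced replicate 2. At chr19:44903663-44904253 it was 0.0263 without control replicate 1, 0.0481 without silenced replicate 1 and 0.249 without control replicate 2. At an FDR of at most 1e-05 limma could test only the starts of CD274, PDCD1LG2 and NECTIN2, 3 of the 6. It tested 9 regions in the windows there, against 21 in the full lists. Limma was not run for a height of at least 4, equal lists or the span plus 5 kb. These were tried on peak numbers, starts called or regions. With the replicate number as a block the peak count differed by 2, as without it (exact sign-flip p = 1, which cannot go below 0.25), and 0 member starts or regions passed. Signs are silenced minus control, and the cause of the shifts below was not tested. The difference in peaks over the 9 windows, 2, became -3 at an FDR of at most 1e-05 and -1 with the span plus 5 kb, and lay between -3.33 (without control replicate 2) and 6.17 with 1 library left out. The difference in starts called, 0.333, became -1 at that FDR, 0 with equal lists and -0.333 with starts plus and minus 1 kb. The 1 region called in silenced libraries only became 0 at that FDR, 0 at a height of at least 4 and 0 with equal lists, and 1 to 3 with 1 library left out (3 without silenced replicate 3, 2 without control replicate 1). The 0 regions called in controls only became 1 at that FDR and 0 to 1 with 1 library left out (1 without control replicate 2 or 3). The shares of all regions called in 1 group only under these alternatives are not given here.

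By window, peak differences turned at that FDR to -0.333 for CD274, CD276 and CD47, 0.333 for PDCD1LG2 and VTCN1, and -1.33 for TNFRSF14. At a height of at least 4 they turned to 0.333 for VTCN1 and -0.333 for NECTIN2, and with equal lists to 0.333 for PDCD1LG2, -0.333 for NECTIN2 and -0.667 for TNFRSF14. With 1 library left out they ranged from -1.67 to 0.333 for PDCD1LG2 and for VTCN1, from -0.167 to 1.83 for CD276 and from -0.333 to 1.17 for TNFRSF14. Start scores turned to 0.11 for CD274 when ranked by height and 0.11 by p-value, and to 0.14 and 0.026 for PDCD1LG2. With 1 library left out they ranged from -0.26 to 0.43 for CD274, -0.40 to 0.087 for PDCD1LG2 and -0.56 to 0.031 for CD47. Over all genes, 1 start passed when ranked by height or by p-value, or without silenced replicate 1 or 2. Over the alternatives the starts with an unadjusted p under 0.05 numbered 399 to 815 and the shared regions 854 to 2379. At an FDR of at most 1e-05, silenced replicate 3 called 3 of the 9 starts and each other library 6. Among those it lost is CD276, where only the lower part of a split peak overlapped the window. The part of depth in this was not tested. At that FDR silenced replicate 3 kept 24487 peaks, against 33511 to 37323 in the other libraries. Starts called in every library numbered 8775 over all protein-coding genes at that FDR, against 11039 in the full lists. Among the members they numbered 3 against 6. The share of all starts called by each single library at that FDR is not given here.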
